A study of Mus musculus with 18 samples.

Results

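The genes described here are 10 auxiliary factors of the mouse pluripotency network, Prdm14, Nr0b1, Nr5a2, Sall4, Lin28a, Utf1, Dppa2, Dppa3, Dppa4 and Eras, among 19935 genes measured. They were chosen by name, with earlier results of these data known. Each was found through the array probes annotated to that gene alone, and 13 such probes covered all 10 genes. For the 3 genes with 2 probes (Dppa2, Dppa3 and Dppa4) the probe with the higher average over all 18 arrays was used. The mRNA was measured on whole-transcript arrays of mouse embryonic stem cells, in a study that asked how p53 and the pluripotency genes interact after DNA damage. R1E, an established line of mouse embryonic stem cells, was mock treated, given 0.5 µM adriamycin for 8 h, or exposed to 25 J/m² of UV light with an 8 h treatment time, with n = 4 arrays per group. Mouse embryonic stem cells of genotype p53-/- on a 129X1 x 129S1 background were left untreated or given 0.5 µM adriamycin for 8 h, with n = 3 arrays per group. Adriamycin (doxorubicin) poisons topoisomerase II and breaks DNA, and UV light makes bulky lesions that block RNA polymerase. All groups grew in serum medium with leukemia inhibitory factor, the cytokine that keeps these cells undifferentiated. The labels give neither the p53 genotype of R1E nor the number of p53-/- clones, and no p53-/- cells were exposed to UV.

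Values are log2 intensities as the submitters deposited them, and array medians lay between 5.30 and 5.61. The R1E and p53-/- arrays were normalized apart from each other, so tests of levels stayed within each set. The sets were tested against each other only through the difference of their adriamycin changes. In that difference genotype, cell line, set and processing cannot be told apart. Levels given side by side for both sets are descriptions that were not tested, and the same limits hold for them. Separate cultures for the arrays of 1 group are not stated in the labels, and the p-values measure only the spread among these arrays, possibly a technical one. The p53-/- set was more variable: the median standard error (SE) of an adriamycin change over all genes was 0.14, against 0.0634 in R1E. The third untreated p53-/- array stood farthest from its group, with a root mean square difference of 0.351 from the others against 0.200 to 0.249 for the other p53-/- arrays. The level of Trp53 itself was not analysed here, so the genotype rests on the label. All 10 embryonic stem cell markers, among them Pou5f1 and Nanog, averaged above the array median in every group. Their mean per array, as deposited, was 10.91 to 10.97 in R1E mock and lower, 9.71 to 9.81, in untreated p53-/- cells. Of 9 fibroblast markers measured, 4 averaged above the array median in R1E groups and 7 in p53-/- groups, with mean levels per array of 4.97 to 5.21 and 6.66 to 6.99. Col1a1, a collagen of fibroblasts, averaged 6.8 in R1E mock and 9.93 in untreated p53-/- cells. In bulk RNA, fewer cells of a type and less RNA per cell cannot be told apart.

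Around the core factors OCT4, SOX2 and NANOG, embryonic stem cells express a second ring of genes that hold differentiation signals down and keep core genes on. PRDM14, a zinc finger protein of the PR domain family, represses fibroblast growth factor signalling and DNA methyltransferase genes together with CBFA2T2 and Polycomb complexes. NR0B1 (DAX1) is a corepressor that binds OCT4 and the nuclear receptor NR5A2, which itself activates Pou5f1. SALL4 is a zinc finger partner of OCT4 and NANOG, and UTF1 is a chromatin protein of undifferentiated cells. LIN28A binds RNA and blocks maturation of the let-7 microRNAs, and ERAS is a Ras-like GTPase of embryonic stem cells that is active without a stimulus. DPPA2 and DPPA4 form a chromatin-binding pair that primes genes of the 2-cell embryo, and DPPA3 (STELLA) protects DNA methylation in the early embryo.

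Promoter sequence in RefSeq (assembly GRCm38.p6) was matched for 5 of the 10 genes. The windows below are the 250 bases before the annotated start of 4 genes that fell at least 2-fold after adriamycin, shown because a searched motif occurs in each. They read 5' to 3' on the gene's strand, and capitals mark the match. For Nr0b1 (chrX:86191525-86191774, plus strand) the capitals are a TATA box, TATAAA, from 32 to 27 bases before the start. In the first of 2 Nr5a2 windows (chr1:136960449-136960698, minus strand) they are the same letters read from the other strand, 181 to 176 bases before the start. For Lin28a (chr4:134018817-134019066, minus strand) they are the SOX core motif ACAATG read from the other strand, 96 to 91 bases before the start. For Eras (chrX:7928608-7928857, minus strand) they are the same SOX core motif, 48 to 43 bases before the start.
Nr0b1: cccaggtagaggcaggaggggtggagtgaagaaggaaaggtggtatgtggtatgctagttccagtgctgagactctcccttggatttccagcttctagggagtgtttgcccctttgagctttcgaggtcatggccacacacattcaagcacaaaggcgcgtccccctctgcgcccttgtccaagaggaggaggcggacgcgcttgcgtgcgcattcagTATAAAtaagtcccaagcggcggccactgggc
Nr5a2: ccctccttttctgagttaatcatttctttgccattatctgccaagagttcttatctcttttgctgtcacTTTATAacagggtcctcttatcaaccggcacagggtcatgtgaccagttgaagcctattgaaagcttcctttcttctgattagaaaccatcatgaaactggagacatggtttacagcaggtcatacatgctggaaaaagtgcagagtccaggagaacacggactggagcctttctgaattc
Lin28a: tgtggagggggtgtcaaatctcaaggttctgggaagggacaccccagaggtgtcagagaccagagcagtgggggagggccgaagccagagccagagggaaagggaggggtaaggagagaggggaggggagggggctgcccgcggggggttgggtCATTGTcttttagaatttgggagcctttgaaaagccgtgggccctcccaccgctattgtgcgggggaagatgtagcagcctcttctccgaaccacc
Eras: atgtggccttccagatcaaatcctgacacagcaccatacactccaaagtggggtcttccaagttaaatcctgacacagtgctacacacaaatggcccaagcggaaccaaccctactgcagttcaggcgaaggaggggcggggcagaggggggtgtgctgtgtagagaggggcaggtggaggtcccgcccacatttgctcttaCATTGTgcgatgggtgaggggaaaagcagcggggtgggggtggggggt

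Of 32851 promoter windows of this length, 12.4% held TATAAA and 10.7% held ACAATG on either strand. The octamer ATGCAAAT (1.60% of windows), the nuclear receptor motif AAGGTCA (4.08%) and the p53 consensus decamer (7.13%) were also searched on both strands, and these letters were in none of the 6 windows of Nr0b1, Nr5a2, Lin28a, Eras and Utf1. The second Nr5a2 window and the Utf1 window held no searched motif. GC content ran from 43.2% in the first Nr5a2 window to 61.6% in the Utf1 window, against a median of 52.4% over all windows. A match is a description of these letters only, and absence from this window says nothing of sites elsewhere.

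The first comparison asked what adriamycin did to these genes in R1E cells. All 10 were lower at 8 h by limma, at Benjamini-Hochberg adjusted p below 0.05 over all genes, where 25.6% of all genes were called lower. The falls ran from 6.81-fold for Prdm14 to 1.23-fold for Dppa2, and 6 genes fell at least 2-fold. The median log2 change of the 10 was -1.19, against -0.02 over all genes. In 9 of the 10 every adriamycin array lay below every mock array, which held for 24.8% of all genes, and Dppa3 was the exception.

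Prdm14 fell most. Its 4 mock arrays read 8.38, 8.28, 8.27 and 8.32 on the log2 intensity scale, and its adriamycin arrays 5.54, 5.58, 5.56 and 5.49. The groups were far apart, and after adriamycin Prdm14 lay close to the median of the arrays. The log2 change was -2.77 ± 0.05 (SE, n = 4 per group; limma adjusted p = 5.76e-16). Nr0b1, the corepressor, read 11.24, 11.18, 11.22 and 11.20 in mock and 8.94, 8.74, 8.86 and 9.04 after adriamycin. It fell 4.99-fold and stayed well above the array median (log2 change -2.32 ± 0.06, limma adjusted p = 2.96e-14).

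Nr5a2, the nuclear receptor that NR0B1 binds, fell 2.52-fold. It read 8.76, 8.69, 8.70 and 8.56 in mock and 7.33, 7.35, 7.34 and 7.37 after adriamycin, so the treated arrays lay within 0.04 of each other and more than 1 log2 unit below mock (change -1.33 ± 0.06, limma adjusted p = 5.25e-12). Sall4, the zinc finger partner of OCT4, fell 2.09-fold, from 10.65, 10.57, 10.65 and 10.70 to 9.60, 9.65, 9.47 and 9.60 (limma adjusted p = 2.28e-10). Its groups did not overlap. The RNA-binding protein gene Lin28a fell 2.5-fold, from 9.31, 9.25, 9.33 and 9.14 to 7.86, 7.89, 7.92 and 8.08, again without overlap (log2 change -1.32 ± 0.06, limma adjusted p = 1.86e-11). The GTPase gene Eras read 6.51, 6.55, 6.55 and 6.49 in mock and 4.68, 4.72, 4.89 and 4.59 after adriamycin. It fell 3.5-fold and ended below the array median (log2 change -1.81 ± 0.06, limma adjusted p = 2.31e-13).

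The chromatin genes fell less. Utf1 went from 11.70, 11.69, 11.68 and 11.62 to 10.93, 10.98, 11.06 and 11.06, a 1.59-fold fall with no overlap (limma adjusted p = 3.43e-09). Dppa4 read 9.78, 9.71, 9.72 and 9.70 in mock and 9.08, 9.01, 9.36 and 9.18 after adriamycin, a 1.49-fold fall (limma adjusted p = 4.69e-06). Its partner Dppa2 fell 1.23-fold, from 10.98, 10.94, 10.90 and 10.77 to 10.69, 10.54, 10.68 and 10.50 (limma adjusted p = 0.000945). On the probes used, neither gene's groups overlapped. Dppa3 read 5.06, 5.01, 5.27 and 5.72 in mock and 5.01, 5.01, 4.95 and 4.79 after adriamycin. Its levels were near or below the array median and the groups met at 5.01. Its fall of 0.32 ± 0.12 on the log2 scale passed narrowly (limma adjusted p = 0.0296) and rested on single arrays: without the fourth mock array the change was -0.17 and the adjusted p 0.0736. Without the third mock array the adjusted p was 0.0552, and without the fourth adriamycin array 0.0931.

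**Figure D1:**
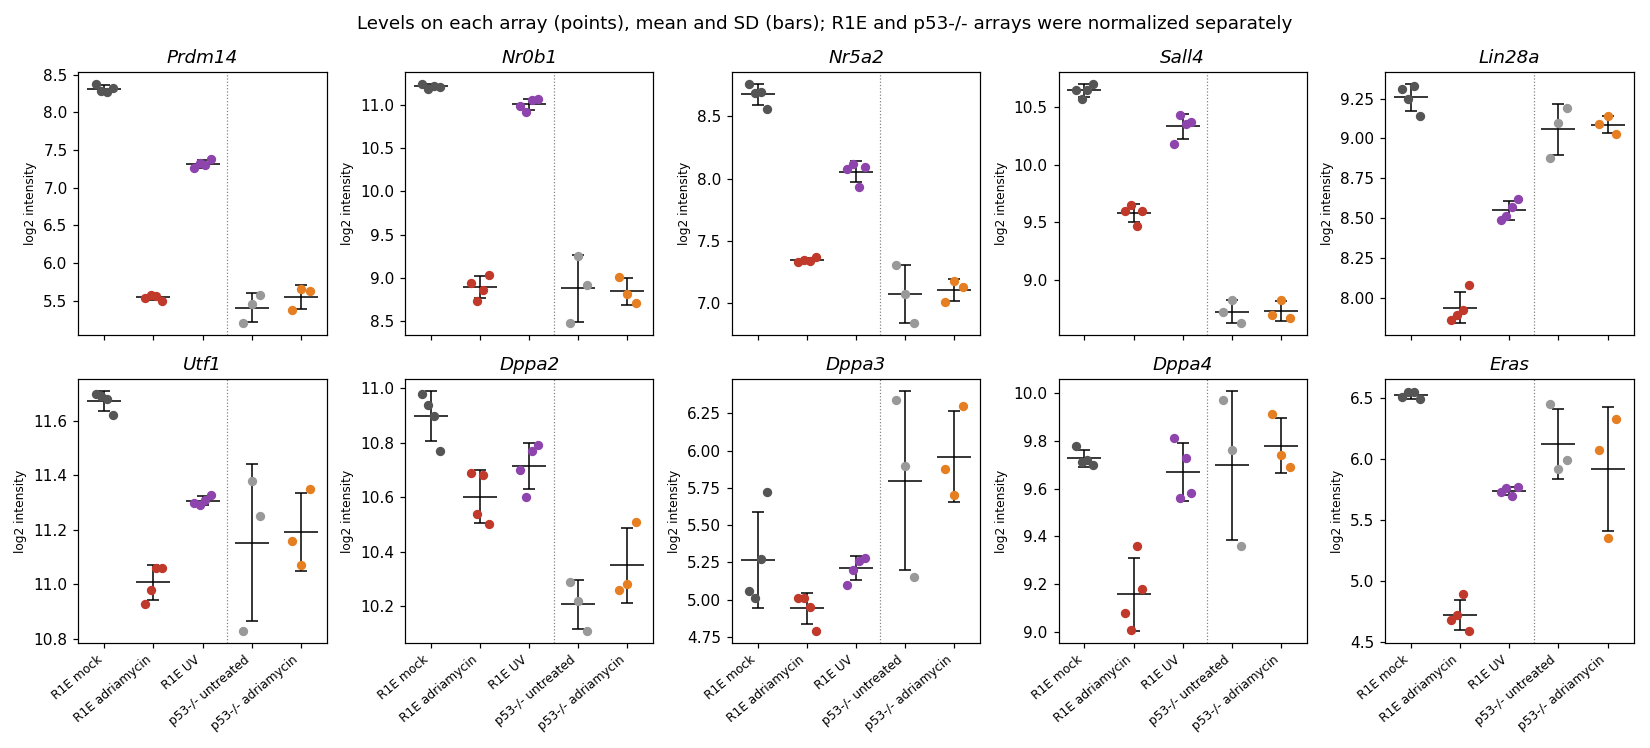
Log2 intensity of each of the 10 genes on every array (points), with the group mean and SD (bars), for R1E mock, adriamycin and UV (n = 4 each) and p53-/- untreated and adriamycin (n = 3 each); vertical scales differ and the sets were normalized separately. Adriamycin arrays lay below mock arrays in R1E for 9 genes, with UV arrays between them for most, and the p53-/- groups overlapped for every gene.

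The second comparison asked how UV compared with adriamycin in the same cells. UV lowered 8 of the 10 genes (limma, adjusted p below 0.05; 21.2% of all genes were called lower), and the median log2 change was -0.34 against 0.03 over all genes. In 7 of the 10 every UV array lay below every mock array, against 20.2% of all genes. Prdm14 again changed most. It read 7.26, 7.33, 7.30 and 7.38 after UV, between its mock and adriamycin arrays, a 1.99-fold fall (log2 change -1.0 ± 0.05, limma adjusted p = 8.15e-11). Eras was next, with UV arrays at 5.73, 5.76, 5.70 and 5.77, a 1.73-fold fall (limma adjusted p = 1.18e-08). Lin28a, at 8.49, 8.51, 8.57 and 8.62, fell 1.64-fold (limma adjusted p = 6.66e-08). Both lay clear of mock.

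Nr5a2 read 8.08, 8.12, 7.93 and 8.09 after UV and fell 1.54-fold (limma adjusted p = 1.05e-07). Utf1, at 11.30, 11.29, 11.31 and 11.33, fell 1.29-fold (limma adjusted p = 6.82e-06), and Sall4, at 10.18, 10.43, 10.35 and 10.37, fell 1.24-fold (limma adjusted p = 0.00046). All 3 stood between mock and adriamycin without touching either. Nr0b1 changed little: its UV arrays read 10.99, 10.92, 11.05 and 11.06, just under mock, for a 1.15-fold fall (log2 change -0.21 ± 0.06, limma adjusted p = 0.0111).

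On the probes used, the Dppa genes moved least after UV. Dppa2 read 10.70, 10.60, 10.77 and 10.79, and its UV arrays reached the level of the lowest mock array. Its 1.13-fold fall (limma adjusted p = 0.03) lost its call after quantile normalization (adjusted p = 0.119) and when any of the first 3 mock arrays or the first 2 UV arrays was left out (0.0568 to 0.0993). Dppa4, at 9.81, 9.56, 9.73 and 9.58, overlapped mock, with a log2 change of -0.06 (95% interval -0.21 to 0.10, limma adjusted p = 0.559). Dppa3, at 5.10, 5.20, 5.26 and 5.28, lay inside its mock range, with a change of -0.05 (95% interval -0.30 to 0.19, limma adjusted p = 0.747). A change inside these intervals could not be told from no change.

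Set directly against UV, adriamycin left 8 of the 10 genes lower (limma; 22.2% of all genes were called lower), and in 9 every adriamycin array lay below every UV array, against 19.9% of all genes. The gap was widest for Nr0b1, 4.32-fold (log2 difference -2.11 ± 0.06, limma adjusted p = 1.43e-12), and next for Prdm14, 3.41-fold (-1.77 ± 0.05, limma adjusted p = 7.6e-13). Eras was 2.03-fold lower after adriamycin than after UV (limma adjusted p = 1.01e-09), Sall4 1.69-fold (4.14e-08), Nr5a2 1.63-fold (3.64e-08) and Lin28a 1.52-fold (5.85e-07). Dppa4 was 1.43-fold lower (limma adjusted p = 2.6e-05) and Utf1 1.23-fold (5.75e-05). The difference was not called for Dppa3, at -0.27 (95% interval -0.52 to -0.02, limma adjusted p = 0.0739), or for Dppa2, at -0.11 (-0.25 to 0.02, limma adjusted p = 0.171). The call for Dppa3 depended on the fit, and passed with only the 8 arrays compared (adjusted p = 0.00452) and without the fourth mock array (0.00491).

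The size of the UV change relative to the adriamycin change varied among the genes. Expressed as a percentage of the adriamycin change in log2 units, the UV change was 54.6% for Utf1, 53.9% for Lin28a, 46.8% for Nr5a2, 43.5% for Eras and 36.0% for Prdm14. It was 28.9% for Sall4 and 8.92% for Nr0b1. For the Dppa genes, whose changes were small, it was 61.4% for Dppa2, 16.4% for Dppa3 and 10.2% for Dppa4, and the UV change was not called for Dppa3 and Dppa4. Both changes share the mock arrays, and no percentage was tested. Within R1E the order of levels was the same for Prdm14, Nr0b1, Nr5a2, Sall4, Lin28a, Eras and Utf1: mock, then UV, then adriamycin, with each step called. For Dppa4 mock and UV did not differ beyond their spread, and for Dppa2 UV and adriamycin did not.

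**Figure D2:**
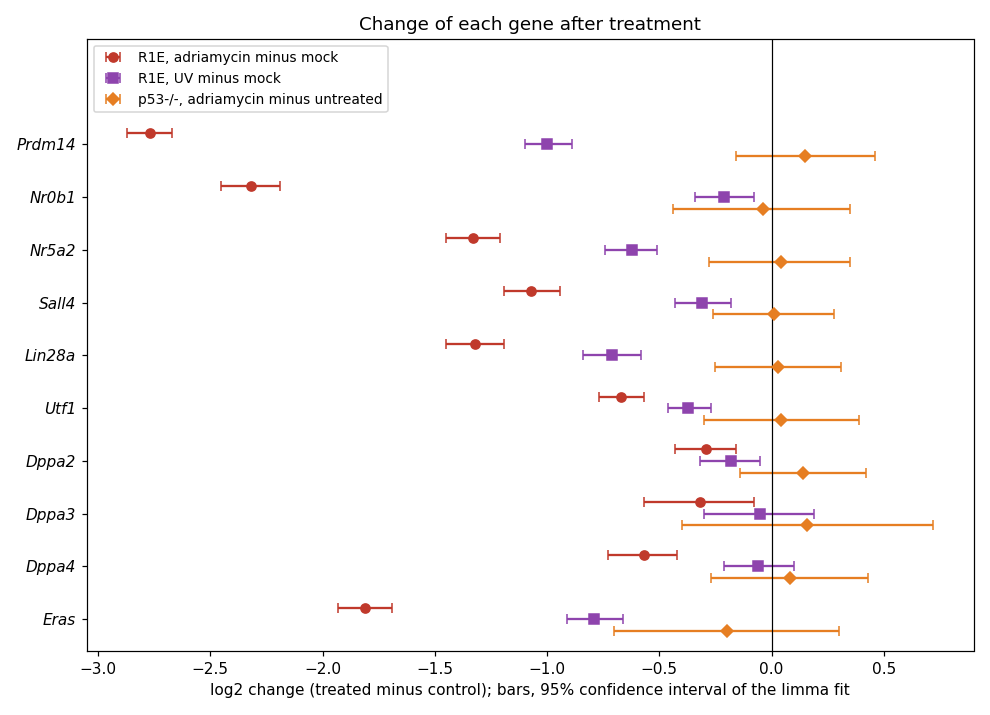
Log2 change of each of the 10 genes (horizontal axis) after adriamycin in R1E (circles), UV in R1E (squares) and adriamycin in p53-/- cells (diamonds), with 95% confidence intervals of the limma fits as bars. Nr0b1 shows the widest gap between adriamycin (-2.32) and UV (-0.21), and every p53-/- interval spans 0.

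The third comparison asked whether adriamycin changed the same genes in p53-/- cells. None of the 10 was called by limma, where 0.0953% of all genes were called in either direction, and none had an unadjusted p below 0.05, which 2319 of all genes had. Log2 changes ran from -0.20 to 0.16, with a median of 0.04 against 0.06 over all genes, and only Nr0b1 and Eras were below 0. No gene had every adriamycin array below every untreated array, as 5.22% of all genes did. Prdm14 read 5.20, 5.45 and 5.57 untreated and 5.37, 5.65 and 5.63 after adriamycin, with overlapping groups near the array median. Its change was 0.15 ± 0.14 (SE, n = 3 per group; 95% interval -0.16 to 0.46, limma adjusted p = 0.73).

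Nr0b1 read 8.48, 9.25 and 8.92 untreated and 9.01, 8.82 and 8.71 after adriamycin, with the treated arrays inside the untreated range (change -0.04, 95% interval -0.44 to 0.35). Lin28a read 8.88, 9.10 and 9.19, then 9.09, 9.14 and 9.03 (change 0.03, interval -0.25 to 0.31). Sall4 read 8.72, 8.83 and 8.63, then 8.70, 8.83 and 8.67 (change 0.01, interval -0.26 to 0.28). Both genes overlapped fully. Nr5a2 read 7.31, 7.07 and 6.84, then 7.01, 7.18 and 7.13 (change 0.04, interval -0.28 to 0.35). Eras was the most scattered, at 6.45, 5.92 and 5.99 untreated and 6.07, 5.35 and 6.33 treated (change -0.20, interval -0.70 to 0.30). For Nr0b1, Nr5a2, Sall4, Lin28a and Eras these intervals do not reach a fall of the R1E size, and they leave smaller falls possible. The untreated p53-/- means of Nr0b1 (8.89), Nr5a2 (7.07) and Sall4 (8.72) lay at or below R1E after adriamycin (8.89, 7.35 and 9.58, as deposited). For Prdm14 the untreated p53-/- mean, 5.41, was already close to the array median and to the 5.54 of R1E after adriamycin (each as deposited), so a fall of the R1E size had little room to show there.

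Among the chromatin genes, Utf1 read 10.83, 11.38 and 11.25 untreated and 11.16, 11.07 and 11.35 treated (change 0.04, interval -0.30 to 0.39). Dppa2 read 10.29, 10.22 and 10.11, then 10.26, 10.28 and 10.51 (change 0.14, interval -0.14 to 0.42). Dppa4 read 9.97, 9.76 and 9.36, then 9.91, 9.74 and 9.69 (change 0.08, interval -0.27 to 0.43). In all 3 the groups overlapped. Dppa3 was again uneven, at 6.34, 5.90 and 5.15 untreated and 5.88, 5.70 and 6.30 treated (change 0.16, interval -0.40 to 0.72). For Dppa3 that interval includes the R1E change. Leaving out the third untreated p53-/- array raised the number of genes called in this comparison from 19 to 442, and still none of the 10 was called.

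The difference of the adriamycin changes, R1E minus p53-/-, was called below 0 for 9 of the 10 genes, where 11.4% of all genes were called that way. It was tested from 2 limma fits, each with its own spread, with Benjamini-Hochberg adjustment over all genes. It was -2.92 ± 0.15 for Prdm14 (SE, limma adjusted p = 3.28e-09) and -2.28 ± 0.19 for Nr0b1 (limma adjusted p = 5.41e-07). Eras followed at -1.61 ± 0.24 (limma adjusted p = 0.000199), Nr5a2 at -1.37 ± 0.15 (7.23e-06), Lin28a at -1.35 ± 0.14 (1.78e-06) and Sall4 at -1.07 ± 0.14 (1.55e-05). The chromatin genes, which fell less in R1E, had smaller differences. Changes in p53-/- cells were -0.20 to 0.16, so the size of a difference largely repeats the R1E fall. Utf1 differed by -0.71 ± 0.17 (limma adjusted p = 0.00607), Dppa4 by -0.66 ± 0.18 (0.0118) and Dppa2 by -0.44 ± 0.14 (0.0349). Dppa3 was not called, at -0.48 (95% interval -1.07 to 0.11, limma adjusted p = 0.266).

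The smallest differences depended on single arrays. The call for Dppa2 was lost without the first mock array (limma adjusted p = 0.0523), without the fourth R1E adriamycin array (0.0535), when any 1 of the 6 p53-/- arrays was left out (0.0518 to 0.129) and after quantile normalization (0.0788). That for Dppa4 was lost without the first p53-/- adriamycin array (0.0617). Dppa3 was called without the first untreated p53-/- array (-0.75, adjusted p = 0.043).

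The p53-/- cells also started at other levels. With array medians aligned, R1E mock stood above untreated p53-/- cells by 2.73 log2 units for Prdm14, 2.15 for Nr0b1, 1.74 for Sall4 and 1.43 for Nr5a2. No test was made of these gaps, which depend on that alignment. In untreated p53-/- cells Prdm14 lay only 0.08 above the array median, and its difference of -2.92 cannot be told apart from this low starting level. Nr0b1 lay 3.56, Sall4 3.40 and Nr5a2 1.75 above it, and whether their lower start bears on their differences was not tested. The starting gap was small for Lin28a (0.02), Eras (0.23), Utf1 (0.34) and Dppa4 (-0.15). On the probes used, the adriamycin changes of these 4 genes differed between the sets. On the second Dppa4 probe the difference was not called (-0.71, limma adjusted p = 0.0997). Whether the starting level bears on the differences of these 4 genes was not tested either. For Dppa2 the gap was 0.51 and for Dppa3 -0.71. The gaps of the Dppa genes depend on the probe. As deposited, the second Dppa3 probe averaged 4.771 in R1E mock and 4.185 in untreated p53-/- cells, the opposite order. The second Dppa4 probe averaged 8.759 and 9.151. Markers of other states differed between the untreated sets too. Of 9 epiblast and germ layer markers measured, 5 averaged above the array median in R1E mock and 8 in untreated p53-/- cells. Fgf5, a gene of the primed epiblast, averaged 5.12 and 7.44. Eomes (7.27 and 6.44) and Tubb3 (8.72 and 6.47) of that list went the other way, and Sox1 was nearly level (6.99 and 6.94). The primitive endoderm markers averaged 6.30 to 6.38 and 7.74 to 7.85 per array. The part of these markers in the difference was not tested.

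**Figure D3:**
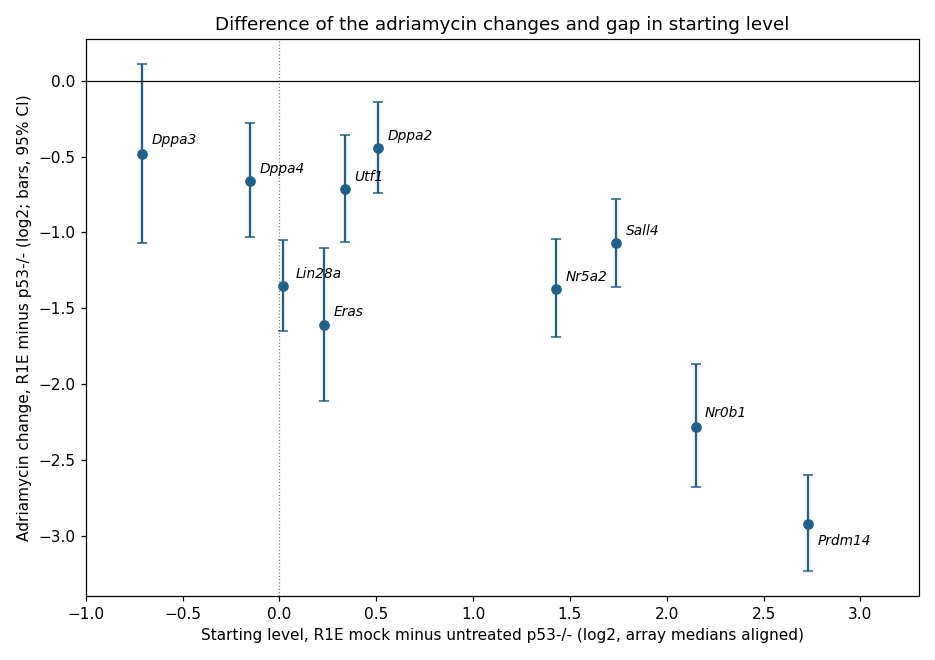
Difference of the adriamycin changes, R1E minus p53-/- (vertical axis, log2, with 95% intervals), against the gap in starting level between R1E mock and untreated p53-/- cells with array medians aligned (horizontal axis, log2), 1 point per gene. Prdm14 and Nr0b1 lie at the lower right, with the widest gaps (2.73 and 2.15). Lin28a and Eras differ by -1.35 and -1.61 at gaps of 0.02 and 0.23. The part of the starting level in the differences was not tested.

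The second probes of the Dppa genes gave the same direction in R1E. After adriamycin the second Dppa2 probe changed by -0.54 (limma adjusted p = 0.0027), that of Dppa3 by -0.27 (0.00848) and that of Dppa4 by -0.70 (4.83e-06). On the second Dppa2 probe the groups overlapped, with mock arrays down to 8.41 and adriamycin arrays up to 8.47. After UV the second Dppa2 probe was called (-0.39, limma adjusted p = 0.0258), and those of Dppa3 (-0.12, 0.215) and Dppa4 (-0.20, 0.0874) were not. That Dppa2 change was larger than those of Nr0b1 (-0.21), Sall4 (-0.31) and Utf1 (-0.37), so the order of the UV changes depends on the probe. The difference between the sets was called on the second probe of Dppa2 (-0.69, limma adjusted p = 0.0411) and not on those of Dppa4 (-0.71, 0.0997) and Dppa3 (-0.20, 0.44). The sources used here do not say whether a probe, including those used above, also reads a near-identical copy of its gene.

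The genes whose pattern was most like those of Prdm14 and Nr0b1 were found from each array's deviation from the control mean of its own set, over 18 arrays and 18683 candidate genes. For Prdm14 the nearest was Fgf17, a fibroblast growth factor, with a root mean square difference of 0.170 log2 units, against a median of 1.394 over all candidates. Next came the zinc finger gene Zic5 (0.205), the homeobox gene Otx2 (0.266), the membrane protein gene Emp1 (0.268) and Zic2 (0.314). These 5 changed by -3.00 to -2.43 after adriamycin, by -1.27 to -0.95 after UV and by -0.36 to 0.20 in p53-/- cells. For Nr0b1 the nearest were Ddx58, the RNA sensor RIG-I (0.242), Spry4, an inhibitor of receptor tyrosine kinase signalling (0.268), the amino acid transporter gene Slc7a3 (0.286), Fgf15 (0.293) and Notch4 (0.305), against a median of 1.111. Spry4 changed by -1.96 after adriamycin and 0.06 after UV. Among the 10 genes themselves, Nr5a2 and Lin28a were the closest pair (0.154), Dppa2 and Dppa4 were each other's nearest (0.200), and so were Prdm14 and Nr0b1, at a wider 0.462. The likeness is a description of these arrays, which the genes share.

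**Figure D4:**
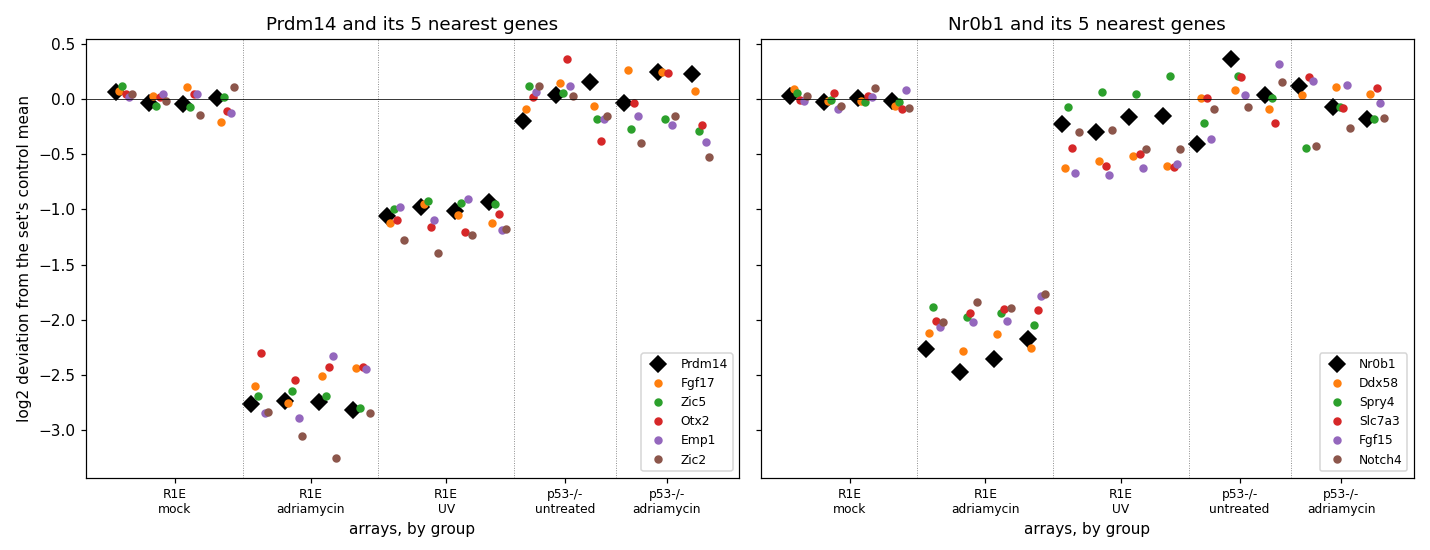
Log2 deviation of Prdm14 (left) and Nr0b1 (right, black diamonds) and of the 5 genes nearest to each (coloured points) from the control mean of the same set, on each of the 18 arrays by group. The Prdm14 neighbours fell to between -3.00 and -2.43 on average after adriamycin in R1E, while Spry4 stayed near 0 after UV (0.06).

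Other genes of the network were taken from lists by function. Of 22 core and naive pluripotency factors measured, 22 fell after adriamycin in R1E (limma; 20 after quantile normalization) and 16 after UV, with median log2 changes of -0.62 and -0.33. Over all genes 25.6% were called lower after adriamycin and 21.2% after UV. Mycn, the MYC family factor of embryonic stem cells, fell by 1.83 and Zfp42 (REX1), a marker of the naive state, by 1.75. In p53-/- cells, where 0.0953% of all genes were called, none of the 22 was called and 4 had an unadjusted p below 0.05. There Mycn changed by 0.17 (limma adjusted p = 0.704) and Zfp42 by -0.68 (0.426), and Zfp42 was called without the third untreated array (-1.05, adjusted p = 0.045). The difference between the sets was called below 0 for 17 of the 22, against 11.4% of all genes. Embryonic stem cell markers, which share genes with this list, averaged 10.91 to 10.97 per array in R1E mock and 10.26 to 10.33 after adriamycin.

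Of 17 partners and targets of PRDM14, 14 fell and 1 rose after adriamycin in R1E, with the same counts after UV (limma), and medians of -0.55 and -0.53. The shares of all genes called lower and higher were 25.6% and 22.1% after adriamycin, and 21.2% and 22.6% after UV. The gene of the 5-methylcytosine oxidase TET2 fell by 1.55 (limma adjusted p = 1.39e-11) and Dnmt3l, the cofactor of the de novo DNA methyltransferases, by 1.03 (1.73e-10). Fgfr1, a fibroblast growth factor receptor gene, was the one that rose (0.50 ± 0.06, limma adjusted p = 1.94e-06). Fgfr2, another such receptor gene, and the DNA methyltransferase genes Dnmt3a and Dnmt3b fell, with log2 changes of -0.26, -0.88 and -0.57. The list mixes partners with targets, and a link between these changes and Prdm14 was not tested. Adriamycin against UV split the list, with 5 genes higher and 8 lower. No gene of the list was called in p53-/- cells (0.0953% of all genes were), and 3 had an unadjusted p below 0.05. The difference between the sets was called for 6 genes below 0 and for Fgfr1 above 0 (0.53, limma adjusted p = 0.00676). Of all 19935 genes 2266 were called below 0 and 2065 above 0.

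In the LIN28 and let-7 pathway 9 of 14 measured genes fell and 2 rose after adriamycin in R1E (limma; 25.6% of all genes fell and 22.1% rose), and 10 fell and 1 rose after UV (21.2% and 22.6% of all genes). Igf2bp3 and Igf2bp1, RNA-binding proteins whose mRNAs are let-7 targets, fell by 0.83 and 0.81 after adriamycin. The genes that rose encode the uridylyl transferases that add U to let-7 precursors bound by LIN28: Tut7 rose by 0.89 (limma adjusted p = 2.84e-10) and Tut4 by 0.34 (4.61e-05). The treatments parted on Tut4, which fell by 0.47 after UV (limma adjusted p = 1.71e-06) and was 0.81 ± 0.05 higher after adriamycin than after UV (limma adjusted p = 5.32e-09). Tut7 rose after both, by 0.48 after UV. In p53-/- cells none of the 14 was called (0.0953% of all genes were), and 1 had an unadjusted p below 0.05. The difference between the sets was called above 0 for 2 and below 0 for 2 of the 14. Of all 19935 genes 2065 were called above 0 and 2266 below 0.

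Genes of the 2-cell embryo, which DPPA2 and DPPA4 prime, went the other way. Of 24 genes listed only 12 were measured, and the Zscan4 genes were not among them. Of the 12 measured, 9 rose and none fell after adriamycin in R1E (limma), where 22.1% of all genes were called higher. After UV 7 rose and none fell, where 22.6% of all genes were called higher. With quantile normalization or median centring 8 rose after adriamycin and 1, Zfp352, fell. Ddit4l, an inhibitor of mTOR signalling, rose by 2.53 after adriamycin and 2.14 after UV, and Tmem92, a membrane protein gene, by 1.17 and 0.74. The list also holds 4 measured deubiquitinase genes of the Usp17l family, whose near-identical sequences the probes may not separate. After adriamycin 3 of them rose, by 0.60 to 0.93, and Usp17ld was not called (0.24, limma adjusted p = 0.421). Of the 9 genes that rose, Tcstv3 (4.06), Tdpoz2 (4.54), Tdpoz3 (4.82), Usp17la (4.29) and Arg2 (4.43) still averaged below the array medians after adriamycin. None of the 12 was called in p53-/- cells (0.0953% of all genes were) and 2 had an unadjusted p below 0.05. The difference between the sets was called for Ddit4l (2.33, limma adjusted p = 3e-08) and Usp17lb (1.12). On the probes used, Dppa2 and Dppa4 themselves fell 1.23-fold and 1.49-fold in the same arrays in which 9 of the 12 measured genes rose. The second probes of the pair had log2 changes of -0.54 for Dppa2 and -0.70 for Dppa4. A link between the pair and these genes was not tested.

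**Figure D5:**
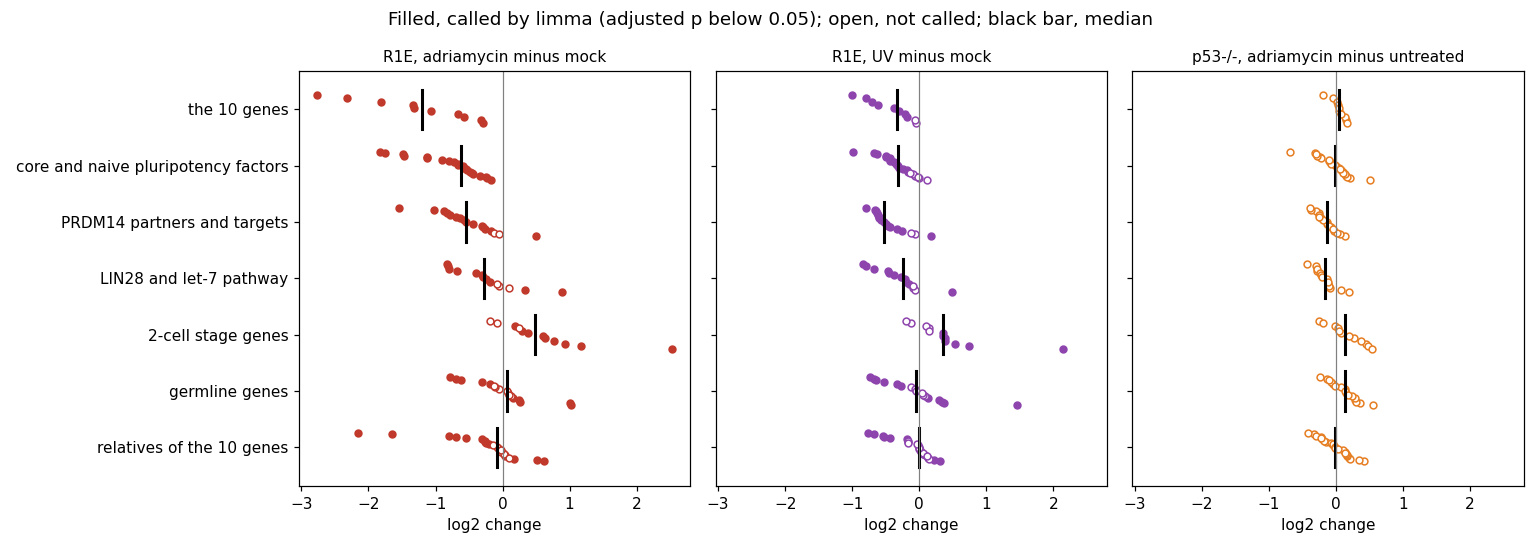
Log2 change of every measured gene (points) in the 10 genes and 6 lists, after adriamycin in R1E, UV in R1E and adriamycin in p53-/- cells; filled points were called by limma at adjusted p below 0.05 and black bars are medians. The 10 genes have the lowest median after adriamycin in R1E (-1.19), 2-cell stage genes the highest (0.49), and no point is filled in p53-/- cells.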

How the data were processed

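Total RNA from 18 samples was labelled and hybridised to Affymetrix whole-transcript arrays, per the labels' protocols. The deposited values are log2 intensities; Affymetrix Expression Console 1.1 (algorithm not given in the sources used here) made those of R1E and RMA in Partek 6.4 those of the p53-/- cells, per the submitters' processing notes. Of 28853 probes, 28815 had values on all arrays and 21780 had 1 gene symbol in the platform annotation (1605 had several, 5430 none). Of these 21689 had an Entrez ID in the RefSeq table of GRCm38.p6, and 0 symbols changed. The probe with the highest mean over 18 arrays stood for each of 19935 genes.

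Groups came from the labels. Changes were fitted with limma 3.58.1 (R 4.3.3, lmFit and eBayes) on the deposited log2 values, over the 12 R1E arrays in 1 fit and the 6 p53-/- arrays in another, with no further normalization or filter. Their difference was tested with both moderated standard errors and Satterthwaite degrees of freedom. A call needed an adjusted p (Benjamini-Hochberg, over all genes) below 0.05. The scripts were tested on simulated data. The number of arrays limits the precision.

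The 10 genes, the lists of other genes and the own-spread test were chosen with earlier results of these data known. Named beside the 10 were the 5 genes nearest to Prdm14 and to Nr0b1 in root mean square difference (clone and prediction names left out) and, per list, up to 2 called genes with the largest rise and fall after adriamycin in R1E. Pou5f1, Nanog, Col1a1, Fgf5, the Usp17l genes, Zfp352 and Postn, Gata6 and Prdm11 in the closing text were named after their values were seen. So were Eomes, Tubb3, Sox1, Tcstv3, Tdpoz2, Tdpoz3, Arg2, Fgfr2, Dnmt3a and Dnmt3b. Alternatives covered normalization, centring, a level minimum of 6, the mean of all probes of a gene, a trended and robust eBayes prior, other sets of arrays per fit, a replicate block and leaving out each array.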

Additional observations from a re-analysis of the deposited data

Results flagged for a closer look

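The adriamycin change differed between R1E and p53-/- cells by the test of the difference itself for 9 of the 10 genes (log2 change in R1E minus that in p53-/- cells). The differences were -2.92 for Prdm14, -2.28 for Nr0b1, -1.61 for Eras, -1.37 for Nr5a2, -1.35 for Lin28a, -1.07 for Sall4, -0.71 for Utf1, -0.66 for Dppa4 and -0.44 for Dppa2. Genotype, cell line, array set and processing cannot be told apart in these values. Prdm14 started in untreated p53-/- cells only 0.08 above the array median. In the 30 groups of 4 R1E arrays, 1 for each gene and treatment, 0 held an array far enough from the others to pass Dixon's 95% value, which chance passes in about 1 of 20 groups.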

How the results depend on the processing

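In R1E all settings kept the direction of the 10 adriamycin changes, and the calls of all but Dppa3, whose adjusted p was 0.0596 in a fit over the 8 arrays compared and lay above 0.05 without any 1 of the 3 arrays named above. For UV the call of Dppa2 was lost as described, and the change of Dppa3, not called, ran from -0.14 to 0.10 with arrays left out. Centring each array on its median moved the share of called genes that were higher from 46.3% to 30.7% after adriamycin and from 51.6% to 32.9% after UV. In p53-/- cells 19 genes were called, and 0 to 442 with an array left out: 442 without untreated array 3, 0 without adriamycin array 1 or 2, 1 without adriamycin array 3, 6 without untreated array 1 and 5 without untreated array 2. The cause was not tested. The sign of changes that were not called in p53-/- cells turned with median centring for Nr5a2 (-0.06), Sall4 (-0.09), Lin28a (-0.06), Utf1 (-0.05) and Dppa4 (-0.01). With an array left out they ran from -0.24 to 0.14 for Nr0b1, -0.08 to 0.16 for Nr5a2, -0.04 to 0.06 for Sall4, -0.06 to 0.10 for Lin28a, -0.12 to 0.15 for Utf1, -0.16 to 0.43 for Dppa3, -0.09 to 0.22 for Dppa4 and -0.41 to 0.08 for Eras. Without untreated array 3, Gata6 (-0.67), Postn (-0.53) and Prdm11 (0.52) of the lists were called in p53-/- cells besides Zfp42. For the difference between the sets 4331 genes were called, 2667 when genes with a mean level under 6 were left out, which tests fewer genes, and 5804 with 1 shared spread. That minimum left no value for Dppa3 and Eras in R1E, for Dppa3 and Prdm14 in p53-/- cells, or for any of these 3 in the difference. With the replicate number as a block, 5 genes were called in p53-/- cells and the adjusted p of Dppa2 in the difference was 0.0508. No other call among the 10 genes changed with the block. Same-numbered arrays deviated from their group means with correlations of -0.142 to 0.191. No strong shared deviation was seen, but with so few arrays per group these values cannot decide whether the numbers pair the arrays.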

Other observations

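Of 24 close relatives of the 10 genes measured, 10 fell and 3 rose after adriamycin in R1E, and 7 fell and 2 rose after UV (limma, adjusted p below 0.05). With each array centred on its median these counts were 14 and 2 after adriamycin and 9 and 2 after UV. Over all genes 25.6% fell and 22.1% rose after adriamycin, and 21.2% and 22.6% after UV. Mras, a Ras-like GTPase gene related to Eras, fell by 2.15 after adriamycin (limma adjusted p = 8.64e-14), and Sall1, a zinc finger relative of Sall4, by 1.65 (1.85e-13). In p53-/- cells Mras changed by 0.13 (limma adjusted p = 0.788) and Sall1 by -0.42 (0.241). The PR domain genes Prdm11 and Prdm16 rose by 0.62 and 0.51 while Prdm14 fell. In p53-/- cells they changed by 0.42 (limma adjusted p = 0.25) and 0.17 (0.649). The difference between the sets was not called for Prdm11 (0.20, limma adjusted p = 0.424) or Prdm16 (0.34, 0.0928). None of the 24 was called in p53-/- cells by limma (0.0953% of all genes were), and 4 had an unadjusted p below 0.05. The difference between the sets was called below 0 for 4 of the 24, against 11.4% of all genes, and not called for 20.

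Of 17 germline genes measured, 5 rose and 5 fell after adriamycin in R1E, and 5 rose and 6 fell after UV (limma; the shares of all genes are those given above). The split after adriamycin depended on the scaling, with 3 higher and 6 lower after quantile normalization and 2 higher and 7 lower with median centring. Hormad1, a meiotic chromosome axis gene, rose by 1.02 after adriamycin and 0.37 after UV. Tex19.1, a germ cell and placenta gene that restrains retrotransposons, rose by 1.01 after adriamycin and by 1.46 after UV, and was 0.45 lower after adriamycin than after UV (log2 difference -0.45, limma adjusted p = 1.21e-05). Mael, of the piRNA pathway, fell by 0.78 and Prdm1, the BLIMP1 gene of germ cell specification, by 0.69 after adriamycin. None of the 17 was called in p53-/- cells (0.0953% of all genes were), and 2 had an unadjusted p below 0.05. The difference between the sets was called above 0 for 1 and below 0 for 4 of the 17. Of all 19935 genes 2065 were called above 0 and 2266 below 0.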
